A study of Homo sapiens with 10 samples.

Results

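Libraries labelled as SMARCA4 knockdown were compared directly with libraries labelled as MAFK knockdown in the human embryonic stem cell line H1, and the search was for gene programs that moved to opposite sides of the control. The comparison was defined by the sample labels: the 2 libraries labelled shSMARCA4 against the 2 labelled shMAFK, 4 of the 10 libraries of the series, over all 14785 rows of the table. The rows were 13808 genes (13110 protein-coding), 973 rows that each sum a subfamily of transposable elements (TEs), and 4 for transfer RNA. The 2 libraries with a hairpin against luciferase (shLUC), a gene that human cells lack, were the reference for direction. All groups were wild-type H1 cells kept in mTeSR1 medium on Matrigel, infected with a virus made in 293T cells that carried a short hairpin RNA (shRNA), and selected with puromycin; the control cells had the same infection and selection. The study asked which factors modulate the chromatin folding that TEs bring about, and its remaining libraries were 2 with a hairpin against E2F6 and 2 against KDM1A. The series describes its duplicates as biological. The hairpin sequences and the time of harvest were not analysed here.

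SMARCA4 (BRG1) is an ATPase of the SWI/SNF (BAF) complexes, which slide or evict nucleosomes and hold enhancers and promoters open or, at other genes, closed; embryonic stem cells carry a form of the complex that contains it. MAFK is a small MAF protein, a DNA-binding partner without an activation domain of its own, which pairs with CNC factors (NFE2L1, NFE2L2) to activate and with BACH1 or BACH2 to repress genes through antioxidant-type elements. 3 programs named below need an introduction. In the integrated stress response, phosphorylation of the translation factor eIF2 slows protein synthesis and favours translation of ATF4, which binds C/EBP-ATF elements with C/EBP partners and induces genes of amino acid synthesis, amino acid import and transfer RNA charging. In sterol synthesis, SREBP2 is released from the endoplasmic reticulum when sterol is low and activates the enzymes from HMG-CoA synthase to cholesterol. Nodal signals through activin receptors and SMAD2/3, induces its own gene and its inhibitors LEFTY1 and LEFTY2, and drives embryonic stem cells toward mesendoderm.

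The targeted transcripts were examined first. SMARCA4 (chromosome 19, 10960825 to 11079426, plus strand, GRCh38) had 1100 and 985 normalized tag counts, the whole-number expression values of the deposited table, in shSMARCA4. It had 8220 and 7576 in shMAFK and 8086 and 8374 in shLUC. The 2 shSMARCA4 libraries lay below all others, and SMARCA4 was lower in shSMARCA4 than in shMAFK by a log2 difference of -2.92 (SE 0.14, adjusted p 0.000103). MAFK (chromosome 7, 1530714 to 1543043, plus strand) had 82 and 216 in shMAFK, 278 and 210 in shSMARCA4 and 212 and 288 in shLUC. Replicate 1 of shMAFK was low, while replicate 2 lay inside the range of the other groups, so the groups overlapped. The log2 difference of 0.85 (SE 0.39, adjusted p 0.254) did not pass; it was 1.55 without shMAFK replicate 2 (adjusted p 0.0425) and 0.16 without replicate 1. The loss of MAFK transcript was therefore seen in 1 library labelled shMAFK and not in the other, and shMAFK below is the name of the label.

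Totals were nearly equal in the normalized values (22836548 to 22855295 per library, with the same median of 594), so the depth is unknown. Replicates of a group varied with a pooled log2 SD of 0.335 in shSMARCA4, 0.264 in shMAFK and 0.275 in shLUC, and 0.53 in shKDM1A. Pluripotency markers were present in all 4 libraries: POU5F1, which encodes OCT4, had 51684 and 21308 in shSMARCA4 and 35710 in both shMAFK libraries, and of 21 measured markers 3 passed, all lower in shSMARCA4 (14.3%, against 4.27% of all rows lower). With 1 of the 4 libraries left out, 2 of the 3 passed without shSMARCA4 replicate 2 and 0 otherwise. In bulk samples, fewer cells of a type and less RNA per cell cannot be told apart.

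Directly compared, 1148 of 14785 rows (7.76%) differed between the libraries labelled shSMARCA4 and those labelled shMAFK at an adjusted p under 0.05 (limma, Benjamini-Hochberg over all rows). Of these, 517 (3.5%) were higher in shSMARCA4, with a median log2 difference of 1.14, and 631 (4.27%) were lower, with a median of -1.26; over all rows the median was 0.00. Whether or not they passed, the 4 libraries did not overlap by group in 8225 rows (55.6%), and 1146 rows (7.75%) had a difference of at least 2-fold. Against shLUC, 618 rows (4.18%) passed in shSMARCA4, 247 higher (1.67%) and 371 lower (2.51%), and 2 rows (0.0135%) passed in shMAFK, where 1296 rows (8.77%) had an unadjusted p under 0.05. Both groups were set against the same 2 shLUC libraries. Of the 1148 rows, 467 also passed in shSMARCA4 against shLUC and 680 passed in neither group against shLUC. Leaving out 1 library cannot change the direction of a row in which the shSMARCA4 and shMAFK libraries do not overlap. All 1148 kept their direction when any of the 4 libraries was left out, but only 288 (without shMAFK replicate 2) to 432 (without shSMARCA4 replicate 1) still passed, and 239 passed without each of the 4 in turn.

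A row was called opposite when it passed the direct comparison and both shLUC libraries lay between the shSMARCA4 and the shMAFK libraries with no overlap. This held for 663 rows (4.48% of all rows, 57.8% of those that passed). In 336 of them (2.27%) the order was shSMARCA4 above shLUC above shMAFK, and in 327 (2.21%) it was the reverse. Whether or not they passed, 858 rows (5.8%) had the first order and 787 (5.32%) the second. Log2 changes of at least 1 against shLUC in both groups were found in 19 opposite rows of the first kind and 33 of the second. The label rests on the order of the libraries and is not a test against shLUC. Of the 1148 rows that passed, 185 had opposite signs and an unadjusted p under 0.05 (limma) in both groups against shLUC. The 2 rows that passed in shMAFK against shLUC, ATF5 and MAL2, were not opposite rows. Some moves were slight, as for MMP15 (0.03 in shMAFK against shLUC).

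**Figure D1:**
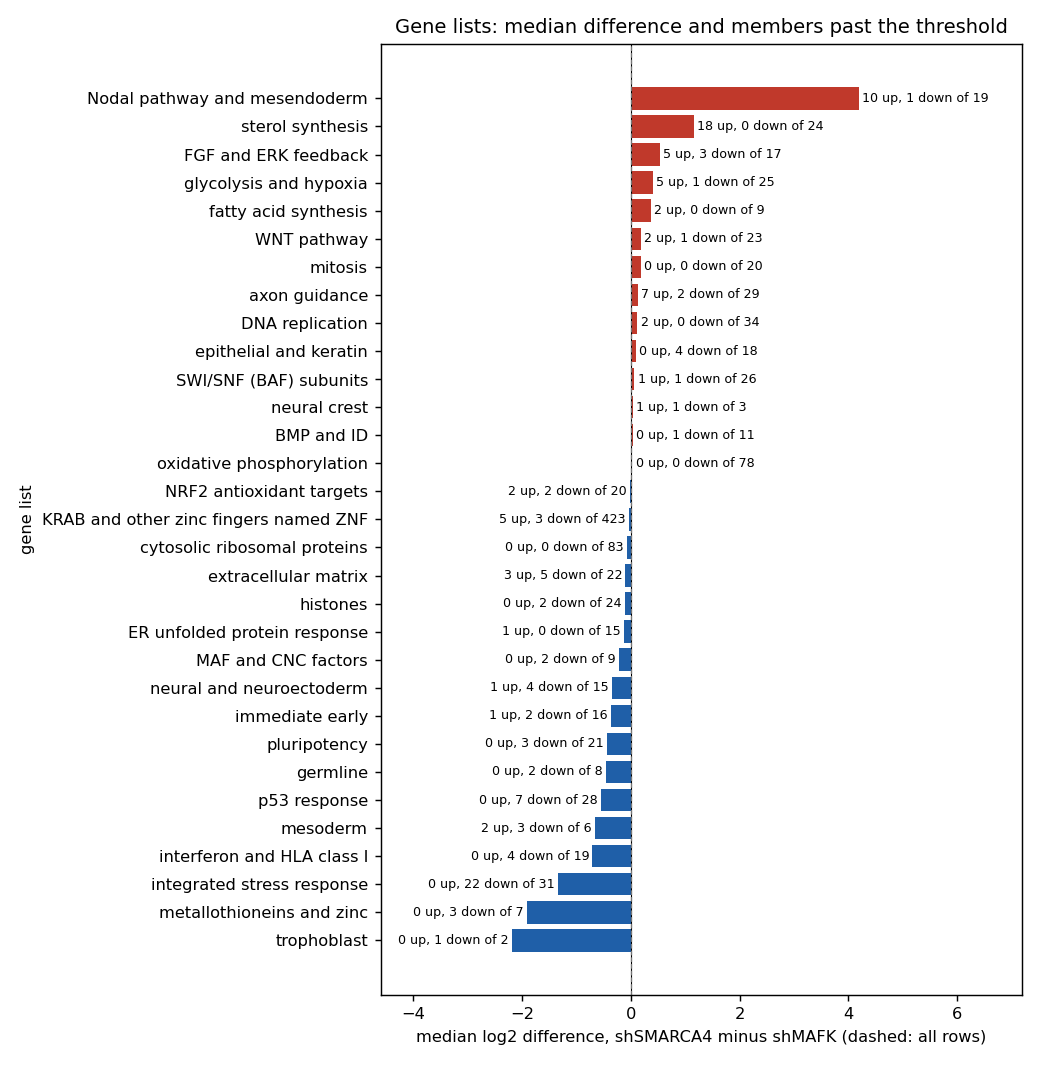
Median log2 difference (shSMARCA4 minus shMAFK, x axis) for each gene list (y axis), with the number of measured members past the threshold in each direction written beside each bar; the dashed line is the median of all rows. The Nodal and sterol synthesis lists stand at the top with medians of 4.19 and 1.15, and the integrated stress response, with 22 of 31 members lower, lies near the bottom at -1.34; the trophoblast bar at the bottom rests on 2 genes.

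The gene lists here and below were chosen with earlier results of these data known, so their shares are descriptions only. Genes of the integrated stress response were lower in shSMARCA4 than in shMAFK. Of 31 measured members, 22 passed as lower and 0 as higher (71%, against 4.27% of all rows that were lower), all 31 had a negative difference, and the median was -1.34. Against shLUC the median was -0.59 in shSMARCA4 and 0.97 in shMAFK. In 19 of the 22 the control lay between shSMARCA4 and shMAFK, among them the amino acid synthesis enzymes ASNS, PSAT1 and SHMT2 and the transporter SLC7A5. The 2 control libraries themselves differed in these genes. The list mean, in log2 units, was 10.08 in shLUC replicate 1 and 10.94 in replicate 2, against 9.88 and 9.81 in shSMARCA4 and 11.77 and 11.47 in shMAFK. Without shLUC replicate 1 the medians against the control were -0.96 in shSMARCA4 and 0.56 in shMAFK; without replicate 2 they were -0.24 and 1.33. The direct comparison does not use the shLUC level, and its median ran from -1.20 to -1.52 when any of the 4 libraries was left out. Between 8 (without shMAFK replicate 1) and 14 (without shSMARCA4 replicate 1) of the 22 still passed then, and 7 passed each time: ATF5, TRIB3, ASNS, PSAT1, SHMT2, ALDH1L2 and PCK2.

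Several members of this list were among the rows with the widest opposite moves. CHAC1, which degrades glutathione and is a textbook target of ATF4, CHOP and ATF3, stood at 45 and 98 in shSMARCA4, 142 and 1436 in shLUC and 2818 and 1592 in shMAFK. The 3 groups did not overlap, although shLUC replicate 2 lay just below the lower shMAFK library. Its log2 difference was -4.97 (SE 0.89, adjusted p 0.0115), and of the 4 leave-one-out fits only that without shSMARCA4 replicate 2 kept it past the threshold. PCK2, the mitochondrial PEP carboxykinase (chromosome 14, 24094053 to 24110598, plus strand), had 547 and 588 in shSMARCA4, 916 and 2606 in shLUC and 8086 and 6343 in shMAFK (log2 difference -3.66, SE 0.40, adjusted p 0.0013). The shMAFK libraries stood clear of the controls here. TRIB3, a pseudokinase that feeds back on the pathway, had 52 and 76, then 96 and 224 in shLUC, and 1022 and 540 in shMAFK (-3.54, SE 0.41, adjusted p 0.00164). ASNS, asparagine synthetase (chromosome 7, 97852118 to 97872542, minus strand), had 1306 and 1168, then 1809 and 3506, then 7784 and 6490 in shSMARCA4, shLUC and shMAFK (-2.52, SE 0.31, adjusted p 0.00199). SHMT2 of the mitochondrial one-carbon cycle had 2022 and 1636, then 3564 and 5172, then 9502 and 8628, with a log2 difference of -2.32 (SE 0.26, adjusted p 0.00162). In these 3 genes, too, each group lay apart from the next.

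ATF5, a transcription factor translated under the same control as ATF4, differed from this order. It had 1530 and 1454 in shMAFK, 141 and 116 in shSMARCA4 and 74 and 116 in shLUC. The shMAFK level stood alone and the other groups overlapped, with a log2 difference of 3.99 (SE 0.33, adjusted p 0.00928) between shMAFK and shLUC and of 0.46 between shSMARCA4 and shLUC. The transfer RNA synthetase genes GARS, SARS and WARS passed with log2 differences of -0.92, -1.05 and -2.15. Transporters of the list that passed were SLC7A11 (-2.56), which exchanges cystine for glutamate, SLC7A5 (-1.86) and its partner SLC3A2 (-1.34). The C/EBP partners of ATF4 were lower too: CEBPB had 358 and 316 in shSMARCA4, 369 and 781 in shLUC and 2156 and 812 in shMAFK (-1.97, adjusted p 0.0322), and CEBPG had 960 and 1118, then 1237 and 1718, then 2934 and 2340 (-1.34, adjusted p 0.0051). DDIT4, an inhibitor of mTORC1, differed by -2.29, CTH of cysteine synthesis by -1.30, PSPH of serine synthesis by -1.27, MTHFD2 of the one-carbon cycle by -1.53 and the transfer RNA exporter XPOT by -0.92. The 9 members that did not pass included ATF4 itself, with 4572 and 3673 in shSMARCA4, 4526 and 6012 in shLUC and 6647 and 6077 in shMAFK (log2 difference -0.63, adjusted p 0.0934). ATF4 is controlled mainly at translation, which RNA levels do not show. DDIT3, which encodes CHOP, had 136 and 172 in shSMARCA4 and 366 and 354 in shMAFK (-1.23, adjusted p 0.102), and CBS showed the smallest difference (-0.10).

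**Figure D2:**
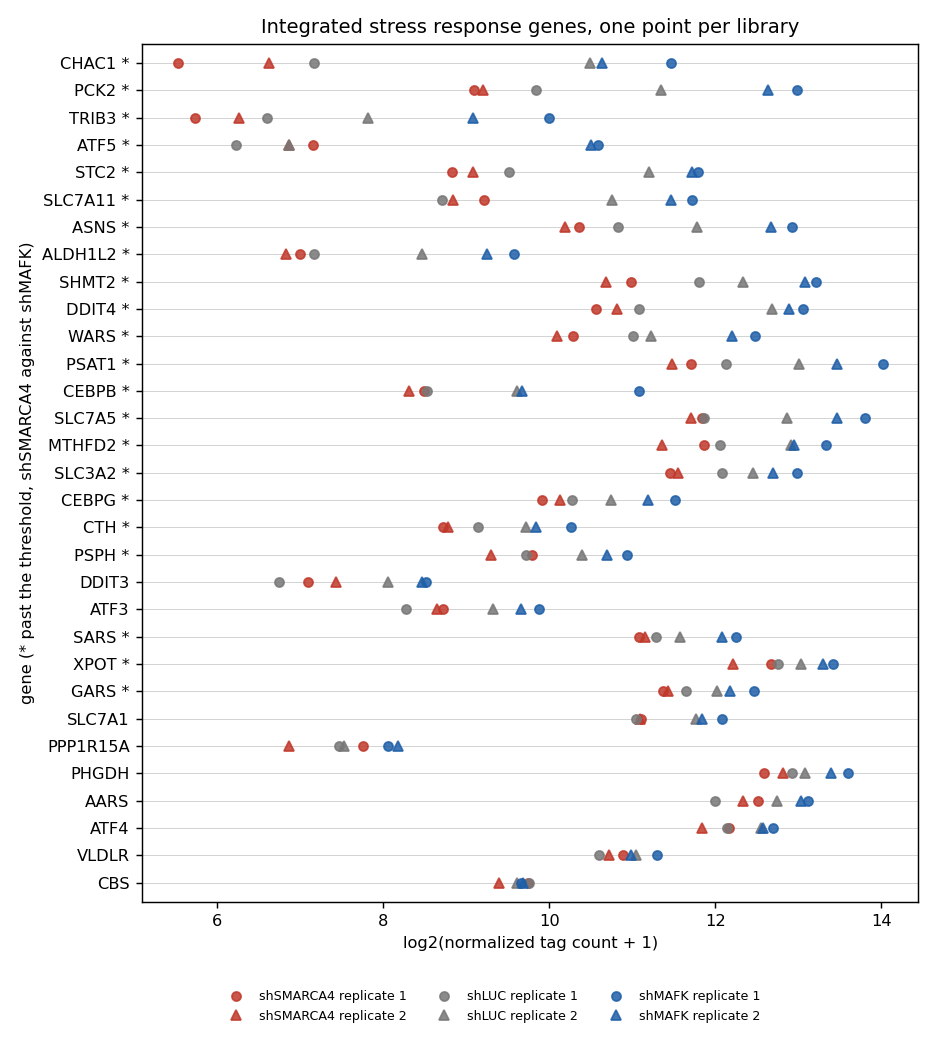
Integrated stress response genes (y axis) with 1 point per library on a log2(normalized tag count + 1) axis; circles are replicate 1 and triangles replicate 2, and an asterisk marks members past the threshold. The blue shMAFK points lie to the right of the red shSMARCA4 points in nearly every gene, and the 2 grey shLUC points are often far apart, as for CHAC1 with 142 and 1436.

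The promoter windows of these genes (250 bases before to 50 after a RefSeq start on GRCh38.p14, 300 bases in all) were searched on both strands for the core of the C/EBP-ATF response element, TGATGNAA. It occurred in 8 of the 27 members with a window (29.6%), against 4.46% of all 27305 genes with one, in 0 of 18 sterol synthesis genes and in 1 of 12 Nodal genes. A gene can have more than 1 window. By window the shares were 18.2% of 44 for the stress list and 3.62% of 35116 for all genes. A match describes the letters and is not a measured binding site. The 4 members that passed and held the core before the start are shown because they carry the element by which ATF4 is known to act. Capitals mark the core, each run is 5′ to 3′ on the strand of the gene, and in CHAC1 and GARS1 the core reads in the reverse complement.
CHAC1, chr15:40953251-40953280, plus strand: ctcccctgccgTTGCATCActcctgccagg
ASNS, chr7:97872458-97872487, minus strand: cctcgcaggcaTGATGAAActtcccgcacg
CEBPG, chr19:33374060-33374089, plus strand: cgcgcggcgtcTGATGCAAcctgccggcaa
GARS1 (GARS in the table), chr7:30594834-30594863, plus strand: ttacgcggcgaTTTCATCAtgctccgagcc
The core began 209, 68, 42 and 33 bases before the RefSeq start. In GENCODE release 29 the CHAC1, ASNS and GARS stretches overlap an exon of a longer transcript, and that of CEBPG lies inside the gene but in no exon of it. Small MAF heterodimers act through the antioxidant response element, with the core TGACNNNGC. This core occurred in 13 of the 27 members of the stress list with a window (48.1%, against 16.1% of all genes). It occurred in 2 of 18 sterol genes and in 1 of 12 Nodal genes. By window the shares were 34.1% for the stress list and 13.3% for all genes. The cores were counted separately, so a window can hold both.

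Targets of p53, the DNA damage factor, moved the same way with smaller differences. Of 28 measured members, 7 passed as lower in shSMARCA4 (25%, against 4.27% of all rows), 0 passed as higher and 25 had a negative difference, with a median of -0.55. Without shMAFK replicate 2 the median was -0.35 and 2 of the 7 still passed; without shSMARCA4 replicate 1 it was -0.48 and 1 did, and without either of the other 2 libraries 4 did. The medians against shLUC were -0.29 in shSMARCA4 and 0.34 in shMAFK, the latter 0.09 without shMAFK replicate 2. All 7 that passed (CDKN1A, GDF15, SESN2, FAS, BBC3, TIGAR and PHLDA3) were opposite rows. CDKN1A, the p21 cell cycle inhibitor (chromosome 6, 36676460 to 36687339, plus strand), had 64 and 127 in shSMARCA4, 235 and 148 in shLUC and 360 and 1170 in shMAFK. Replicate 2 of shMAFK stood far above replicate 1. The log2 difference of -2.83 (SE 0.51, adjusted p 0.0119) did not pass without shMAFK replicate 2 (-1.98, adjusted p 0.0694) or without shSMARCA4 replicate 1 (-2.34, adjusted p 0.0833). BBC3, which encodes the apoptosis inducer PUMA, was the member that passed without each library in turn, with 254 and 306 in shSMARCA4, 440 and 516 in shLUC and 695 and 985 in shMAFK (-1.57, SE 0.20, adjusted p 0.00241). SESN2 and GDF15 are also known targets of the integrated stress response, and MDM2, the p53 ubiquitin ligase, had 1173 and 1522 in shSMARCA4 and 1662 and 2331 in shMAFK without passing (-0.56, adjusted p 0.176). FAS overlaps ACTA2 on the other strand, and since counting by strand is not stated, the 2 genes (-1.36 and -1.20) may share reads.

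Sterol synthesis ran in the other direction. Of 24 measured members, 18 passed as higher in shSMARCA4 (75%, against 3.5% of all rows that were higher), 0 as lower, all 24 had a positive difference, and the median was 1.15. Against shLUC the median was 0.46 in shSMARCA4 and -0.64 in shMAFK, and in 15 of the 18 the control lay between. Again the control libraries were apart: without shLUC replicate 2 the medians were 0.32 and -0.85, and without replicate 1 they were 0.60 and -0.48. Between 7 (without shMAFK replicate 2) and 12 (without shSMARCA4 replicate 2) of the 18 still passed with a library left out, and HMGCS1, MVK, MVD, SQLE and INSIG1 passed each time.

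The members that passed cover the pathway from its first committed steps to its end. HMGCS1, HMG-CoA synthase (chromosome 5, 43289395 to 43313512, minus strand), stood at 10757 and 6928 in shSMARCA4, 4340 and 2910 in shLUC and 1476 and 1534 in shMAFK. The 3 groups stood in clear order, with a log2 difference of 2.52 (SE 0.28, adjusted p 0.00144), and HMGCS1 was among the 10 opposite rows with the widest moves above the control. MVK, mevalonate kinase, had 447 and 358 in shSMARCA4, 184 and 153 in shLUC and 108 and 77 in shMAFK (2.12, SE 0.23, adjusted p 0.00118), and MVD, mevalonate diphosphate decarboxylase, had 2555 and 2506, then 1132 and 1120, then 608 and 634 (2.03, SE 0.29, adjusted p 0.0039). Replicates of MVD nearly coincided within each group. Later enzymes passed with smaller differences: IDI1 1.38, FDFT1 1.19, SQLE 1.55, LSS 1.25, CYP51A1 1.30, MSMO1 1.33, HSD17B7 0.84, EBP 0.82 and DHCR7 1.77, and so did the sterol carrier STARD4 (1.10). INSIG1, an SREBP target that retains SREBP in the endoplasmic reticulum, had 1505 and 1349 in shSMARCA4, 1124 and 848 in shLUC and 419 and 460 in shMAFK (1.70, SE 0.19, adjusted p 0.00144). SREBF2, which encodes SREBP2, had 7680 and 8628, then 6343 and 6490, then 5626 and 4906, a smaller log2 difference of 0.63 (SE 0.16, adjusted p 0.0418). Members that did not pass included PMVK, FDPS, TM7SF2, NSDHL and SC5D, with log2 differences from 0.12 to 0.87.

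**Figure D3:**
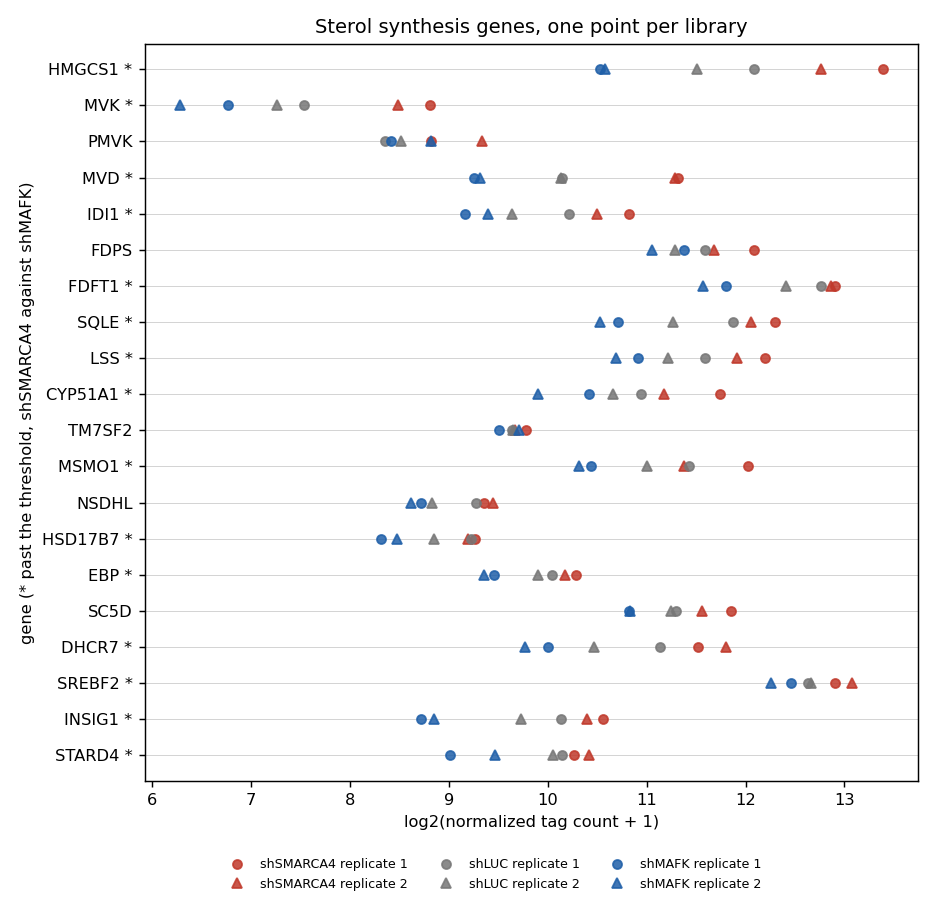
Sterol synthesis genes named in the text (y axis) with 1 point per library on a log2(normalized tag count + 1) axis, drawn as in the stress response plot. For HMGCS1, MVK and MVD the red shSMARCA4, grey shLUC and blue shMAFK points form 3 separate pairs, while for TM7SF2, which did not pass, they mix.

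The core of the sterol regulatory element, TCACNCCAC, occurred in the promoter window of 1 of 18 members with one, SREBF2, against 1.39% of all genes. Its stretch, upstream of the gene in GENCODE, is given because SREBP2 is known to act on its own gene. Capitals mark the core, which begins 133 bases before the start.
SREBF2, chr22:41832962-41832991, plus strand: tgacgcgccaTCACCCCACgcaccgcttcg

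Beyond sterols, 2 of 9 fatty acid synthesis genes passed (22.2%, against 3.5% of all rows higher), both higher in shSMARCA4 and both without each library in turn. FASN, fatty acid synthase, reached 51691 in each shSMARCA4 library, 41812 in each control and 25026 and 23459 in shMAFK (log2 difference 1.09, SE 0.10, adjusted p 0.000606); values this high fall on steps that recur across libraries. ACSS2, which makes acetyl-CoA from acetate, had 1084 and 1264, then 728 and 646, then 348 and 247 (1.99, SE 0.24, adjusted p 0.00203). SREBF1 did not pass and had the reverse sign (-0.62, adjusted p 0.123). Of 25 glycolysis and hypoxia genes, 5 were higher in shSMARCA4 (20.0%, against 3.5% of all rows) and 1, VEGFA, was lower. The 5 were PFKFB4 (2.21), PDK1 (1.63), PGK1 (1.41), SLC2A3 (1.29) and LDHA (0.83); with any 1 of the 4 libraries left out, 3 of the 6 still passed, and PFKFB4, PDK1 and PGK1 did so each time. PFKFB4, a regulator of glycolytic flux, had 818 and 1073 in shSMARCA4, 664 and 440 in shLUC and 166 and 246 in shMAFK (SE 0.31, adjusted p 0.0039). VEGFA, which ATF4 can also induce, had 336 and 330 in shSMARCA4, 288 and 1278 in shLUC and 1461 and 1859 in shMAFK (-2.30, SE 0.54, adjusted p 0.0328), so its controls were split like those of the stress genes.

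Nodal pathway and mesendoderm genes gave the largest differences above shMAFK. Of 19 measured members, 10 passed as higher in shSMARCA4 (52.6%, against 3.5%) and 1 as lower, and the median was 4.19. Over members with a row mean of at least 100 the median was 1.70. Against shLUC the median was 1.90 in shSMARCA4 and -1.05 in shMAFK, and 9 of the 11 were opposite rows. The shSMARCA4 libraries differed: the list mean in log2 units was 10.07 in replicate 1 and 8.52 in replicate 2, against 6.999 and 6.827 in shLUC and 5.94 and 5.51 in shMAFK. Both replicates lay above all 8 other libraries of the series. Without shSMARCA4 replicate 1 the median was 3.35 in the direct comparison and 0.74 against shLUC, and without replicate 2 it was 5.02 and 3.50. Of the 11 that passed, 2 (without shMAFK replicate 2) to 7 (without shSMARCA4 replicate 2) still did so with a library left out, and NODAL and WNT3 passed each time.

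NODAL, the ligand (chromosome 10, 70432315 to 70447951, minus strand), stood at 2112 and 664 in shSMARCA4, 138 and 91 in shLUC and 76 and 54 in shMAFK (log2 difference 4.19, SE 0.57, adjusted p 0.00325). GDF3, a related ligand, had 1076 and 443, then 340 and 205, then 152 and 106 (2.43, SE 0.39, adjusted p 0.00729). Of the inhibitors, LEFTY1 had 1885 and 131 in shSMARCA4, 125 and 34 in shLUC and 12 and 1 in shMAFK (6.61, SE 1.5, adjusted p 0.0293), and CER1 had 2354 and 172, then 44 and 21, then 9 and 0 (7.66, SE 1.89, adjusted p 0.04). Replicate 1 of shSMARCA4 held most of this signal, and without it neither passed (adjusted p 0.166 and 0.226); LEFTY1 also did not pass without either shMAFK library, and CER1 did not pass without any of the 4. LEFTY2 (5.08, adjusted p 0.0273) is a close copy of LEFTY1, and how reads were split between them is not stated. TDGF1, the co-receptor CRIPTO, was the member lower in shSMARCA4, with 9056 and 7313 against 11997 and 14274 in shMAFK (-0.69, SE 0.17, adjusted p 0.039). The receptors ACVR1B, ACVR2A and ACVR2B and the nuclear partner FOXH1 did not pass (log2 differences from -0.44 to 0.01).

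Targets of the pathway were higher in shSMARCA4 and near the bottom of the scale elsewhere. EOMES, a T-box factor of mesendoderm (chromosome 3, 27715949 to 27722711, minus strand), had 2430 and 724 in shSMARCA4, 14 and 34 in shLUC and 0 and 6 in shMAFK. Its log2 difference of 8.97 (SE 1.91, adjusted p 0.0234) was the largest of the rows in the comparison, and it did not pass with any of the 4 libraries left out (adjusted p 0.0751 to 0.169). MIXL1 had 1809 and 132, then 20 and 14, then 10 and 9 (5.55, SE 1.04, adjusted p 0.0137), and passed only without shSMARCA4 replicate 2 when 1 of the 4 was left out (7.43, against 3.66 without replicate 1). WNT3, which induces the streak program with NODAL, had 562 and 210, then 32 and 38, then 20 and 13 (4.33, SE 0.62, adjusted p 0.00407). FGF8 had 782 and 146 in shSMARCA4 and at most 8 in shLUC and shMAFK (6.61, SE 1.43, adjusted p 0.0243). Its difference was 5.41 without shSMARCA4 replicate 1 and 7.82 without replicate 2. FGF8 did not pass with any of the 4 libraries left out. FOXA2, an endoderm factor, was listed at 0 in both shMAFK libraries and had 792 and 170 in shSMARCA4 and 4 and 2 in shLUC; it did not pass (adjusted p 0.154). These low values make differences on the log2(value + 1) scale wide and uncertain. With the pluripotency list, NANOG had 4613 and 3699 in shSMARCA4 and 2576 and 1640 in shMAFK (1.01, adjusted p 0.0717), and SOX2 passed as lower, with 4426 and 4748 against 7576 and 7680 (-0.73, SE 0.13, adjusted p 0.0109), and so did TRIM71 (-0.87).

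**Figure D4:**
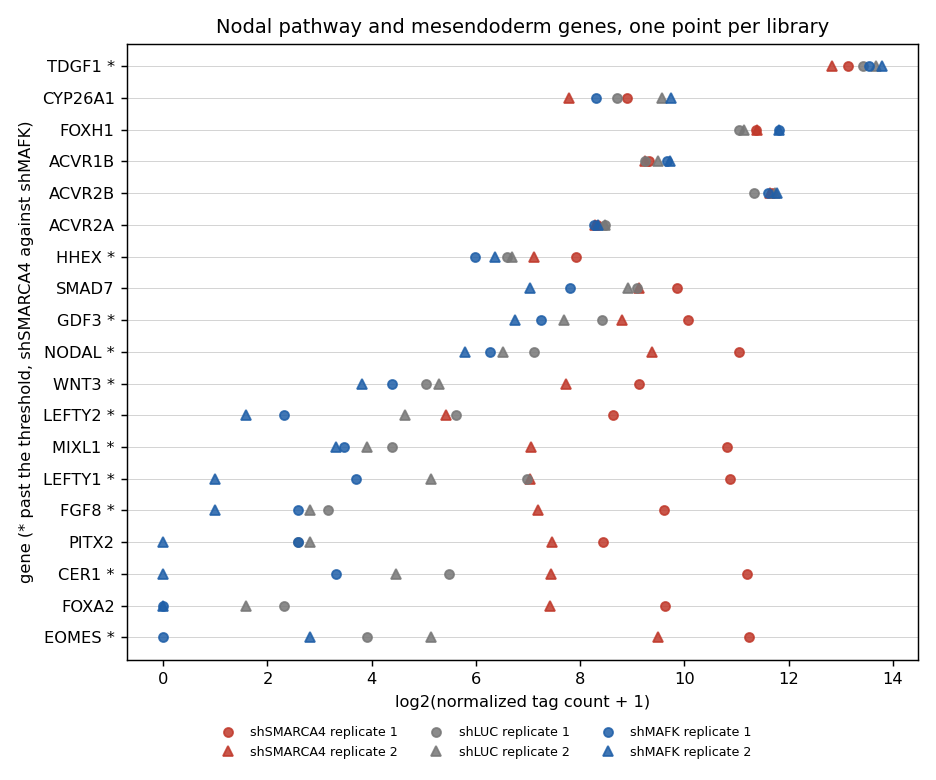
Nodal pathway and mesendoderm genes (y axis) with 1 point per library on a log2(normalized tag count + 1) axis, drawn as in the stress response plot. Red circles (shSMARCA4 replicate 1) lie to the right of red triangles (replicate 2) for the induced genes, for example 1885 against 131 for LEFTY1, and both lie to the right of the blue shMAFK points.

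Of 17 measured genes of FGF signalling and its ERK feedback, 5 were higher in shSMARCA4 (29.4%, against 3.5% of all rows), 3 were lower (17.6%, against 4.27%) and 9 did not pass. Those higher were the feedback inhibitors DUSP6, IL17RD, SPRY1 and SPRY2 and the ETS factor ETV4. DUSP6, the ERK phosphatase, had 5844 and 5536 in shSMARCA4, 2879 and 3673 in shLUC and 1722 and 821 in shMAFK (log2 difference 2.26, SE 0.30, adjusted p 0.00307), and IL17RD (SEF) had 7576 and 5420, then 1976 and 1998, then 1620 and 822 (2.47, SE 0.34, adjusted p 0.00327). Those lower were the ligand FGF2 and the receptors FGFR2 and FGFR3; the ligand FGF8, described above with the Nodal list, was higher, and the receptors FGFR1 and FGFR4 did not pass (-0.38 and 0.54). FGFR3 was at 104 in each shSMARCA4 library, at 336 and 424 in shLUC and 634 and 1259 in shMAFK (-3.09, SE 0.37, adjusted p 0.00182), and FGF2 had 1228 and 1591, then 2273 and 3226, then 4132 and 5844 (-1.81, SE 0.25, adjusted p 0.00344). All 4 of these genes were opposite rows and passed without each library in turn. Of 11 measured BMP and ID genes, only ID1 passed (9.09%, against 4.27% of all rows lower). ID1 was lower (-1.89, SE 0.28, adjusted p 0.00521), with 655 and 504 in shSMARCA4 and 2208 and 2053 in shMAFK. The list as a whole did not move: 6 members had a positive and 5 a negative difference, with a median of 0.03.

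Among single developmental genes, FOXB1, a forkhead factor (chromosome 15, 60004222 to 60061730, plus strand), had 942 and 1338 in shSMARCA4, 187 and 182 in shLUC and 98 and 85 in shMAFK (log2 difference 3.61, SE 0.25, adjusted p 0.000174). DACT1, a modulator of WNT and TGF-beta signalling, had 3780 and 2757, then 745 and 599, then 439 and 158 (3.61, SE 0.44, adjusted p 0.00199). SIX6, an eye field factor, had 187 and 254, then 37 and 17, then 6 and 0 (6.37, SE 1.01, adjusted p 0.00689), TBX3 had 99 and 141, then 43 and 42, then 13 and 24 (2.67, adjusted p 0.013), and ARID5A had 234 and 192, then 97 and 75, then 36 and 23 (2.84, adjusted p 0.00163). Each of these 5 was ordered with the control between. ZIC1 of the neural list was higher in shSMARCA4 (3.28, SE 0.43, adjusted p 0.00287), while 4 others of its 15 measured members, NPTX1, NPTX2, STMN2 and NCAM1, were lower. That is 6.67% of the list higher, against 3.5% of all rows, and 26.7% lower, against 4.27%. The noncoding LINC01867 (chromosome 2, 52373118 to 52390012, plus strand) had 194 and 174 in shSMARCA4 and 44 and 53 in shLUC and was listed at 0 in both shMAFK libraries. Its log2 difference of 7.53 had a wide SE of 1.65 (limma adjusted p 0.0262). LINC01867 did not pass with any of the 4 libraries left out.

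Of the 12 largest differences below shMAFK, INHBE and NPTX1 led among the coding genes. INHBE, the inhibin beta E chain, a secreted factor of the TGF-beta family known to respond to ATF4 (chromosome 12, 57452323 to 57459280, plus strand), stood at 8 and 9 in shSMARCA4, 57 and 419 in shLUC and 985 and 645 in shMAFK. The log2 difference of -6.39 (SE 0.79, adjusted p 0.00223) passed without each library in turn, and the split of the controls was that of the stress list. NPTX1, neuronal pentraxin 1, had 17 and 27, then 1076 and 1048, then 1318 and 2374 (-6.30, SE 0.44, adjusted p 0.000174); most of that distance was already present against shLUC (-5.57). The same held for PKDCC, a secreted kinase (-4.87, and -4.54 against shLUC), and CUZD1 (-4.41 and -3.89). These genes also lay below shLUC in shE2F6, by less: NPTX1 had 198 and 438, PKDCC 404 and 211 and CUZD1 136 and 148. In shKDM1A, CUZD1 was low too (176 and 352, against 640 and 1158 in shLUC), while NPTX1 and PKDCC overlapped shLUC. IRX2, an Iroquois homeobox factor, had 46 and 62, then 501 and 728, then 1166 and 1760 (-4.72, SE 0.31, adjusted p 0.000174), and COL9A3, a chain of collagen IX, had 141 and 83, then 824 and 1145, then 1543 and 2768 (-4.24, SE 0.47, adjusted p 0.00144). GADD45G, CXCR2, G0S2 and the noncoding AC068134.2 had values from 0 to 10 in shSMARCA4 and passed with log2 differences from -4.22 to -5.99. At these low values the SEs were wide, from 0.86 to 1.19. For G0S2 the difference was -6.69 without shSMARCA4 replicate 1 and -3.23 without replicate 2. AL033504.1, a noncoding RNA, was listed at 0 in both shSMARCA4 libraries and had 44 and 77 in shLUC and 105 and 76 in shMAFK (-6.50, SE 1.56, limma adjusted p 0.0361). Like GADD45G, it did not pass with any of the 4 libraries left out.

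Other opposite rows with wide moves below the control included RGS5, a regulator of G protein signalling, with 108 and 113 in shSMARCA4, 311 and 372 in shLUC and 750 and 1136 in shMAFK (log2 difference -3.05, SE 0.24, adjusted p 0.000405). PRODH, proline dehydrogenase, had 166 and 292, then 844 and 987, then 1951 and 2618 (-3.35, SE 0.31, adjusted p 0.000645), and MMP24, a membrane-bound metalloproteinase, had 66 and 99, then 557 and 430, then 1095 and 1353 (-3.90, SE 0.27, adjusted p 0.000174). APC2 had 30 and 42, then 63 and 153, then 348 and 320 (-3.20, adjusted p 0.00236), and STC2, stanniocalcin 2, a stress response member, had 454 and 540, then 728 and 2346, then 3528 and 3366 (-2.80, adjusted p 0.00594). In RGS5, PRODH and MMP24 the control pair was tight, unlike in STC2.

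Matrix and surface genes did not move as a block. Of 22 extracellular matrix genes, 5 were lower in shSMARCA4 (22.7%, against 4.27% of all rows) and 3 higher (13.6%, against 3.5%), and 5 or 6 of the 8 still passed with 1 of the 4 libraries left out. COL1A1 had 311 and 629 in shSMARCA4, 2555 and 3226 in shLUC and 3873 and 6578 in shMAFK (log2 difference -3.51, SE 0.49, adjusted p 0.00344). The neighbouring collagen VI genes COL6A1 and COL6A2 on chromosome 21 were higher (1.66 and 1.28), while COL6A3 on chromosome 2, the third chain of the same protein, was lower (-2.30, SE 0.27, adjusted p 0.0017). LAMA5, SPARC and COL18A1 were lower (-1.47, -1.44 and -1.10) and FBN2 was higher (1.30). Of 19 interferon and HLA class I genes, 4 were lower (21.1%, against 4.27% of all rows) and 0 higher. With 1 of the 4 libraries left out, 1 (without either shMAFK library) to 3 (without shSMARCA4 replicate 1) still passed, and BST2 did so each time. BST2, tetherin, had 106 and 96, then 614 and 710, then 1050 and 1526 (-3.64, SE 0.25, adjusted p 0.000174), followed by HLA-B (-1.41), B2M (-1.33) and TAP1 (-0.91). B2M did not differ between shMAFK and shLUC beyond its spread (-0.03, adjusted p 0.997). Paralogs of HLA-B may share its reads. In the metallothionein list, taken next, 42.9% were lower, against 4.27% of all rows. Among 7 measured genes of the metallothionein list, which bind zinc and copper, MT1F, MT1G and MT1X were lower (-2.27, -2.05 and -1.37) and all 7 had a negative difference; these genes are close copies of each other, and 0 of these 3 passed without shSMARCA4 replicate 1, shSMARCA4 replicate 2 or shMAFK replicate 1.

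Axon guidance genes passed in 9 of 29 cases, 7 higher in shSMARCA4 (24.1%, against 3.5% of all rows) and 2 lower (6.9%, against 4.27%). With 1 of the 4 libraries left out, 3 to 5 of the 9 still passed, and SEMA3A and ROBO2 did so each time. ROBO2, a SLIT receptor, had 560 and 933 in shSMARCA4, 239 and 216 in shLUC and 158 and 134 in shMAFK (log2 difference 2.30, SE 0.23, adjusted p 0.000903), and its ligand SLIT2 was also higher (1.46, adjusted p 0.0205). SEMA3A had 1184 and 1436, then 776 and 918, then 422 and 381 (1.70, SE 0.20, adjusted p 0.0017). The netrin receptors parted: UNC5C was higher (2.02, adjusted p 0.013) and UNC5B lower (-1.14, adjusted p 0.00638). The ligand EFNB2 (1.03), the receptor EPHA1 (0.87) and SEMA6A (0.85) were higher, and the semaphorin co-receptor NRP2 was lower (-0.80). Of 16 immediate early genes, JUN was higher (1.68, adjusted p 0.0234), a share of 6.25% against 3.5% of all rows. CYR61 (CCN1) and CTGF (CCN2), targets of YAP, were lower (-1.86 and -1.68), a share of 12.5% against 4.27%.

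Of 26 measured SWI/SNF subunits, partners of SMARCA4, 1 was higher and 1 lower (3.85% each, near the 3.5% and 4.27% of all rows). The lower was SMARCA4 itself and the higher BCL7C, with 554 and 514 in shSMARCA4, 292 and 246 in shLUC and 156 and 142 in shMAFK (log2 difference 1.84, SE 0.23, adjusted p 0.00227). SMARCA2, the other ATPase, had 544 and 532 in shSMARCA4 and 632 and 524 in shMAFK (-0.10, adjusted p 0.79). Of 9 MAF and CNC factors, 2 were lower (22.2%, against 4.27% of all rows). Both were opposite rows, as were 57.8% of all rows that passed. Neither passed in every fit with 1 of the 4 libraries left out. BACH2 was lower, with 54 and 52, then 90 and 122, then 194 and 214 (-1.92, SE 0.29, adjusted p 0.00588), and so was NFE2L1 (-1.27, SE 0.22, adjusted p 0.0109). MAFG, another small MAF, had 1070 and 678 in shSMARCA4 and 1068 and 1444 in shMAFK and did not pass (-0.54, adjusted p 0.381). Antioxidant genes activated by NFE2L2 did not move together. Of 20, 2 were higher, among them PIR (0.93), and SLC7A11 and SRXN1 were lower (-2.56 and -0.85). As shares of the list, both counts lay above those of all rows (3.5% higher and 4.27% lower). The median was -0.02, and it ran from -0.07 to 0.03 with 1 of the 4 libraries left out. No antioxidant gene that passed did so in each of those fits.

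Markers of other cell types that such a culture could hold were mostly low or mixed. Of 6 measured mesoderm markers, TBX3 and KDR were higher (33.3%, against 3.5% of all rows). VIM, ACTA2 and PDGFRB were lower (3 of 6, against 4.27% of all rows). The list median of -0.665 ran from -0.887 to -0.439 with 1 of the 4 libraries left out. VIM had 1046 and 876 in shSMARCA4 and 2473 and 2818 in shMAFK (log2 difference -1.46, adjusted p 0.00144). Neural crest had 3 measured markers, with ETS1 higher (1.06) and NGFR lower (-2.17), trophoblast had 2, with KRT7 lower (-3.01), and germline had 8, with DAZL and CTCFL lower (-1.40 and -1.25). Of 18 epithelial markers, KRT19, CLDN4, PKP2 and MAL2 were lower (-1.18 to -0.72; 22.2%, against 4.27% of all rows). With 1 of the 4 libraries left out, CLDN4 passed without shMAFK replicate 2 and 0 otherwise did. MAL2 was 1 of the 2 rows that passed between shMAFK and shLUC (1.53, adjusted p 0.0432), and it was also higher in shSMARCA4 than in shLUC (0.81, adjusted p 0.0281). The part of a change in cell type in the Nodal result was not tested.

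Housekeeping lists gave few calls. Of 83 cytosolic ribosomal protein genes, 78 oxidative phosphorylation genes and 20 mitosis genes, 0 passed in either direction by limma, with 8, 4 and 4 at an unadjusted p under 0.05; a fit of only the 2 groups called 4, 0 and 1. DNA replication had 2 of 34 (TYMS and POLA2, both higher, 0.65 and 0.60), a share of 5.88% against 3.5% of all rows higher. The WNT pathway, not a housekeeping list, had LEF1 and SFRP2 higher (8.7%, against 3.5% of all rows) among 23. SFRP1 was lower (4.35%, against 4.27% of all rows). Of 15 genes of the unfolded protein response of the endoplasmic reticulum, SDF2L1 passed as higher (1.40, limma adjusted p 0.016). That was a share of 6.67% against 3.5% of all rows, and the list median was -0.13. No gene named here from the DNA replication, WNT or unfolded protein response lists passed in every fit with 1 of the 4 libraries left out. Of 24 histone genes, HIST1H2AC and H1F0 were lower (-1.70 and -0.75), a share of 8.33% against 4.27% of all rows. Of 423 zinc finger genes named ZNF, 5 were higher (ZNF341, at 2.26, by the most) and 3 lower, against 7.76% of all rows that passed.

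TE rows differed less than genes. Of 973 subfamilies, 4 passed, while 7.76% of all rows did. An unadjusted p under 0.05 (limma) was found in 38, while 21.3% of all rows had one. The median absolute log2 difference was 0.11 against 0.26 for genes. Each TE row sums the copies of a subfamily, so single copies were not compared. HERVK-int, the internal part of HERV-K, among the youngest of the human endogenous retroviruses, had 1166 and 1764 in shSMARCA4, 3780 in both shLUC libraries and 6012 and 8496 in shMAFK. The control lay between, with a log2 difference of -2.32 (SE 0.48, adjusted p 0.0202). HERVI-int (-1.23, adjusted p 0.0155) and LTR49-int (-1.04, adjusted p 0.0117) had the same order. HERVK11-int was higher, with 2910 and 2216 in shSMARCA4, 1176 and 858 in shLUC and 1134 and 868 in shMAFK (1.36, SE 0.31, adjusted p 0.0288), so shMAFK and the control overlapped. Of these 4, HERVI-int passed without shSMARCA4 replicate 2 (adjusted p 0.0357), and with any other of the 4 libraries left out 0 of them passed. The 48 Alu rows had a median of -0.12 and 0 passed. How reads were shared among TE copies and with the genes around them is not stated.

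The libraries of the other hairpins place these levels. For the integrated stress response the list means were 11.29 and 11.39 in shKDM1A and 10.39 and 10.18 in shE2F6, so shMAFK (11.77 and 11.47) was highest, shKDM1A lay just below it and shSMARCA4 was lowest. INHBE, for example, had 454 and 1068 in shKDM1A, which overlaps shMAFK, and 80 and 42 in shE2F6. For sterol synthesis the order was reversed, with shSMARCA4 (11.20 and 10.95) above shE2F6 (10.78 and 10.90), shLUC (10.72 and 10.41), shKDM1A (10.31 and 10.35) and shMAFK (9.97 and 9.88). The p53 list spanned less, from 8.68 and 8.78 in shSMARCA4 to 9.31 and 9.69 in shMAFK, with all other libraries between 8.92 and 9.17.

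**Figure D5:**
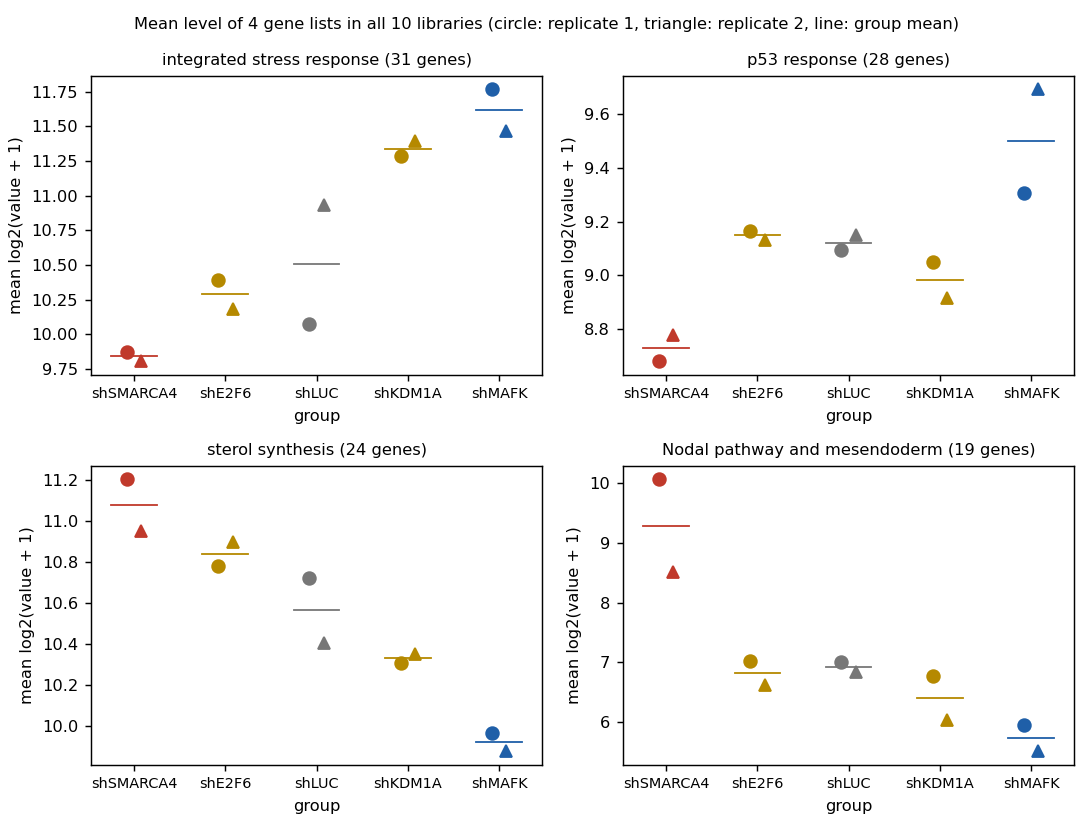
Mean log2(normalized tag count + 1) of 4 gene lists (y axis) in each of the 10 libraries, grouped by hairpin (x axis); circles are replicate 1, triangles replicate 2 and lines group means. The shSMARCA4 and shMAFK points are at opposite ends for the integrated stress response (9.88 and 9.81 against 11.77 and 11.47) and for sterol synthesis (11.20 and 10.95 against 9.97 and 9.88), and the 2 shLUC points are apart in both.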

How the data were processed

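The deposited table holds normalized tag counts, whole-number scores deposited by the authors. After sorting, 80.3% of ranks have the same value in all libraries, and the normalization method is not given in the sources used here; the values are not raw counts, so no count model was used. STAR, STARsolo and hg38 are named in the submitters' processing notes; the counting of TEs, strands and paralogs is not given in the sources used here. Library preparation used NEB Next Ultra reagents, per the labels. Columns were matched to samples by the sample descriptions, and 0 columns stayed unmapped. A difference in total RNA would not be seen after such normalization.

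Values were analysed as log2(value + 1), which understates changes of low rows. All 10 libraries entered one linear model per row in limma 3.58.1 (R 4.3.3; empirical Bayes variances that follow the mean, two-sided), which leaves 5 degrees of freedom for the error. Benjamini-Hochberg adjustment covered all 14785 rows, with a threshold of 0.05. The filter (row mean of at least 10) removed no row. With 2 libraries a group, single permutation tests cannot reach the threshold, and SE and p rest on the spread shared by the groups. Replicate differences of shSMARCA4 and shMAFK correlated at -0.05, and those of shE2F6 and shSMARCA4 at 0.337, the highest of any pair of groups. Replicate numbers were not taken to pair libraries.

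Named were the 4 targets, the 12 largest differences each way and the 10 widest opposite rows each way (higher group's mean 50 or more, no overlap), members of lists past the threshold, and the 5 largest TE rows each way. Members and lists were chosen with earlier results of these data known. List counts are descriptions without a set test. Some list members are counted but not reported by name here. Members named that did not pass, and groupings of single genes, were chosen after their values were seen. Positions are from GENCODE release 29 on GRCh38, promoter windows from RefSeq on GRCh38.p14. Alternatives covered pseudocount, filter, rescaling, variance model, libraries in the fit, replicate number as a block, and leaving out each library. Python 3.11.15, pandas 2.3.3 and matplotlib 3.10.9 made tables and plots.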

Additional observations from a re-analysis of the deposited data

How the results depend on the processing

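The counts depended most on which libraries set the spread. With group weights the direct comparison gave 2072 rows (977 higher, 1095 lower), and without both shKDM1A libraries, the pair with the widest spread, 2147 (1039 higher, 1108 lower); both sets held all 1148 rows. Opposite rows then numbered 1065 and 1110, rows changed in shSMARCA4 against shLUC 1306 and 1162, and rows changed in shMAFK against shLUC 487 and 34. The shMAFK count against shLUC, 2 rows, was also 5 with quantile normalization, 5 without a mean-variance trend, 20 in a fit of only the 2 groups and 1 with the replicate block. Leaving out each of the 6 libraries of shSMARCA4, shMAFK and shLUC in turn gave 291 to 820 changed rows (116 to 361 higher, 175 to 459 lower), 212 to 576 opposite rows, 89 to 380 rows for shSMARCA4 against shLUC and 0 to 10 for shMAFK against shLUC; a left-out library leaves 1 in its group, which is assumed to vary like the others. The replicate block gave 1266 changed and 693 opposite rows; replicate differences correlated from -0.05 to 0.337 between pairs of the 5 groups, so replicate numbers were not taken to pair libraries. A row whose shSMARCA4 and shMAFK libraries do not overlap cannot reverse when 1 library is left out. Of 163 named rows, 0 reversed under any of these settings. Those no longer past the threshold numbered from 0 (median-ratio rescaling, group weights, without shKDM1A) to 9 (no trend, only the 2 groups) among fits of all replicates, and from 23 to 93 with 1 library left out; MAFK passed without shMAFK replicate 2. A filter at a mean of 100 removed 16 of the named rows. Depth is unknown, and with 2 libraries a group small differences are often not detectable. Low rows such as EOMES and CER1 have wide errors.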
